A study of Mus musculus with 39 samples.

Results

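Cumulus cell-derived 2-cell clones that had received no trichostatin A, TSA(–), were compared with the unfertilized oocytes, OC, from which embryos of this kind are made. The comparison took in 15 of the 39 arrays of the series, 8 of TSA(–) and 7 of OC, chosen by their sample labels alone. All animals were (B6xDBA/2)F1 mice, and the oocyte and nucleus donors were females aged 8 to 10 weeks. An OC array measured the RNA of 10 pooled metaphase II oocytes, collected 15 h after an injection of human chorionic gonadotropin. A TSA(–) array measured 10 pooled embryos, each made by placing the nucleus of a cumulus cell (the somatic cells around the oocyte) into an enucleated oocyte and activating it, and cultured for 24 h with neither trichostatin A nor Spi-C mRNA. The labels do not say that the pools of a group came from separate collections, so p-values measure the spread between these arrays. Embryos fertilized in vitro (IVF, 6 arrays of 10 pooled 2-cell embryos after 24 h) and the nuclear donor cells (Cumulus, 4 arrays of 500 cells) are given beside the clones where they bear on a gene. Activation, a day of culture, the first cleavage and the exchange of the nucleus all lie between OC and TSA(–), so their parts in a difference cannot be told apart.

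A metaphase II oocyte is transcriptionally silent and lives on RNA stored during its growth. After fertilization or activation most of this store is broken down in waves while the embryonic genome is switched on, a burst that in the mouse takes place mainly at the 2-cell stage. In a clone the genome that has to be switched on is that of a differentiated cell.

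Every array carried the same 44K set of 60-mer probes, of which 41174 were not controls. The level of a probe is its log2 processed signal minus the 75th percentile of its array, and a difference is the mean level of TSA(–) minus that of OC, in log2 units. A gene is called higher or lower where limma gave it a Benjamini-Hochberg adjusted p under 0.01, and only called genes are said to rise or fall. The 75th percentile lay between 282 and 534 units on OC arrays and between 1240 and 1510 on TSA(–) arrays. The share of probes well above background, by the scanner software's own flag, was 49.1% to 60.1% (median 57.8%) in OC and 67.1% to 77.8% (median 72.4%) in TSA(–), a difference of means of 15.8 percentage points (two-sided exact permutation test, p = 0.000311, the smallest p that 7 against 8 arrays allow). No OC array overlapped any TSA(–) array in either measure. Because the reference point of a level is itself a transcript abundance, the amount of RNA per oocyte or embryo is not known, and fewer transcripts of all genes cannot be told apart from a change of one gene. The median difference over all probes was −0.88 with this scaling, −1.56 when each array was centred on its median and −0.28 after quantile normalization, so counts under all 3 scalings are given beside the main ones. All 9 measured oocyte markers (of 10 listed) were well above background on every OC array, and all 6 measured 2-cell markers (of 8) on every TSA(–) array. Detection alone separated the groups little, since 8 of the 9 oocyte markers (not Mos) were also on every TSA(–) array and 5 of the 6 2-cell markers (not Tdpoz1) on every OC array. The summed level of the oocyte markers was 11.10 to 11.92 in OC and 8.24 to 8.51 in TSA(–), and that of the 2-cell markers 4.75 to 5.37 and 5.41 to 6.79. The 4 slides that held arrays of both groups gave the same sign as the pooled difference for 94.3% of the genes that rose and 94.6% of those that fell.

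**Figure D1:**
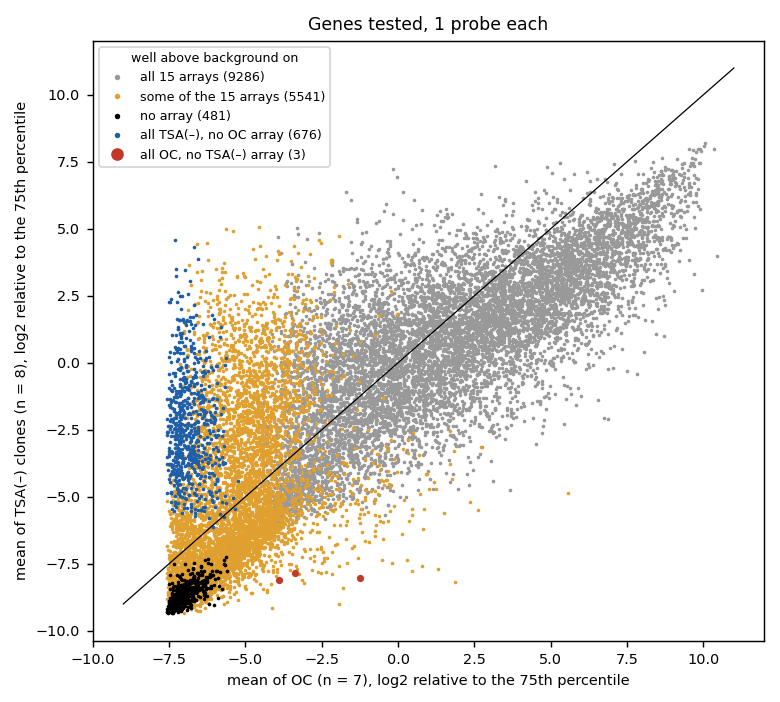
Mean level of each gene tested in OC (x axis) and TSA(–) clones (y axis), log2 relative to the 75th percentile of the array, coloured by the arrays on which its probe was well above background; the line marks equal levels. The 676 genes seen on every TSA(–) array and no OC array form a column at the left, while only 3 genes were seen on every OC array and no TSA(–) array. The OC arrays were dimmer, with fewer probes well above background.

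Of 37927 probes tested, 9333 were higher in TSA(–) than in OC (24.6%) and 16699 were lower (44.0%). Counted as 15987 genes with 1 probe each, 4436 genes rose (27.7%) and 7665 fell (47.9%). Under all 3 scalings 3503 genes (21.9%) rose and 5573 (34.9%) fell. These shares of all genes are the background for every list count below. Between the clones and IVF, 9.13% of probes were higher in TSA(–) and 10.5% were lower, or 10.8% and 13.4% of genes. Nearly all risers, 4342 of 4436, were well above background on all TSA(–) arrays. Of the genes that fell, 5828 were well above background on all OC arrays, whereas 411 were above background on none of the 15 arrays, so that their difference rests on signal near background. The detection classes were not symmetric. Of all 41174 probes, 1940 went from no OC array to every TSA(–) array, but only 6 went from every OC array to no TSA(–) array, and 17137 were seen on all 15. The OC arrays were dimmer and had fewer probes well above background, so a probe at a like level could be missed more often in OC. The imbalance of the classes cannot be told apart from this limit. All 200 genes brightest in OC were lower in TSA(–), by a median difference of −2.99 and by differences from −7.72 to −1.02. After quantile normalization the median of those 200 genes was −0.61, and 110 of them were lower under all 3 scalings. They were chosen by their OC level, which favours a fall. Of the 200 genes brightest in TSA(–), 167 were also lower than in OC and 22 higher. The median difference of this second set was −1.85, and 0.56 after quantile normalization.

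The 16 genes with the largest changes among those measured on all 15 arrays and 11 more that passed from one side of the background to the other were chosen by rule. The rule took only called genes whose OC and TSA(–) arrays did not overlap. All 27 kept their direction and their call in each alternative processing, which the choice of the largest differences favours. The largest rise of a gene seen in both groups was that of Slc34a2, a sodium-phosphate cotransporter. Its level lay between −4.58 and −2.54 (median −4.13) in OC and between 4.06 and 5.31 (median 4.75) in TSA(–), a difference of 8.65 ± 0.26 (SE) or 400-fold (adjusted p = 3.02e-22). For Slc34a2 the donor cells had a mean of −3.88 ± 0.78 (SD, n = 4), as low as OC, and IVF had 4.85 ± 0.30 (SD, n = 6). Nop56, a core protein of the box C/D snoRNPs that methylate ribosomal RNA, went from −2.42 to −0.67 (median −1.85) in OC to between 6.13 and 6.64 (median 6.35) in TSA(–), 273-fold. Trub2, a pseudouridine synthase, rose by 8.32, Hexim1, the inhibitor of the elongation factor P-TEFb, by 8.08, and the metallothionein gene Mt2 by 7.60. The SUMO protease gene Uspl1 (7.57) and the splicing factor gene Cdc5l (7.44) completed the list. In Cdc5l 1 OC array, at −4.48, stood apart from the other 6, which ended at −1.89. Zfp352, a zinc finger gene known for its burst at the 2-cell stage, had levels of −4.28 to −2.90 (median −3.99) in OC and of 3.69 to 4.28 (median 4.17) in TSA(–), a 240-fold rise (adjusted p = 4.50e-23). Zfp352 was at −7.27 ± 0.82 (SD, n = 4) in Cumulus and thus low in the oocyte and in the nucleus donor.

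Among genes above background on no OC array, the largest rise was in Guca1a, which encodes a guanylate cyclase activator known from photoreceptors. Its signal in OC, from −7.66 to −6.50, was not well above background, and TSA(–) lay between 4.11 and 5.06 (median 4.62), at least 909-fold higher. Here a lower bound replaces the fold because the dim group is set at the lowest signal that counts as measured. Ddit4l, a stress-induced inhibitor of mTORC1, was at least 764-fold higher in TSA(–), and its 8 clone arrays spread from 2.58 to 5.69. Next came Kpna1, an importin alpha (at least 558-fold), 1600012H06Rik (431-fold), the methylosome subunit Wdr77 (419-fold), the kinase Stk17b (363-fold), the phosphatase Dusp26 (318-fold) and the PCNA-associated factor Pclaf (238-fold), all as lower bounds. Of these 8 genes, Guca1a and Dusp26 were far below their clone level in Cumulus (−4.94 and −6.22), while the Cumulus means of 1600012H06Rik (3.87) and Stk17b (4.05) lay within or above their TSA(–) range.

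**Figure D2:**
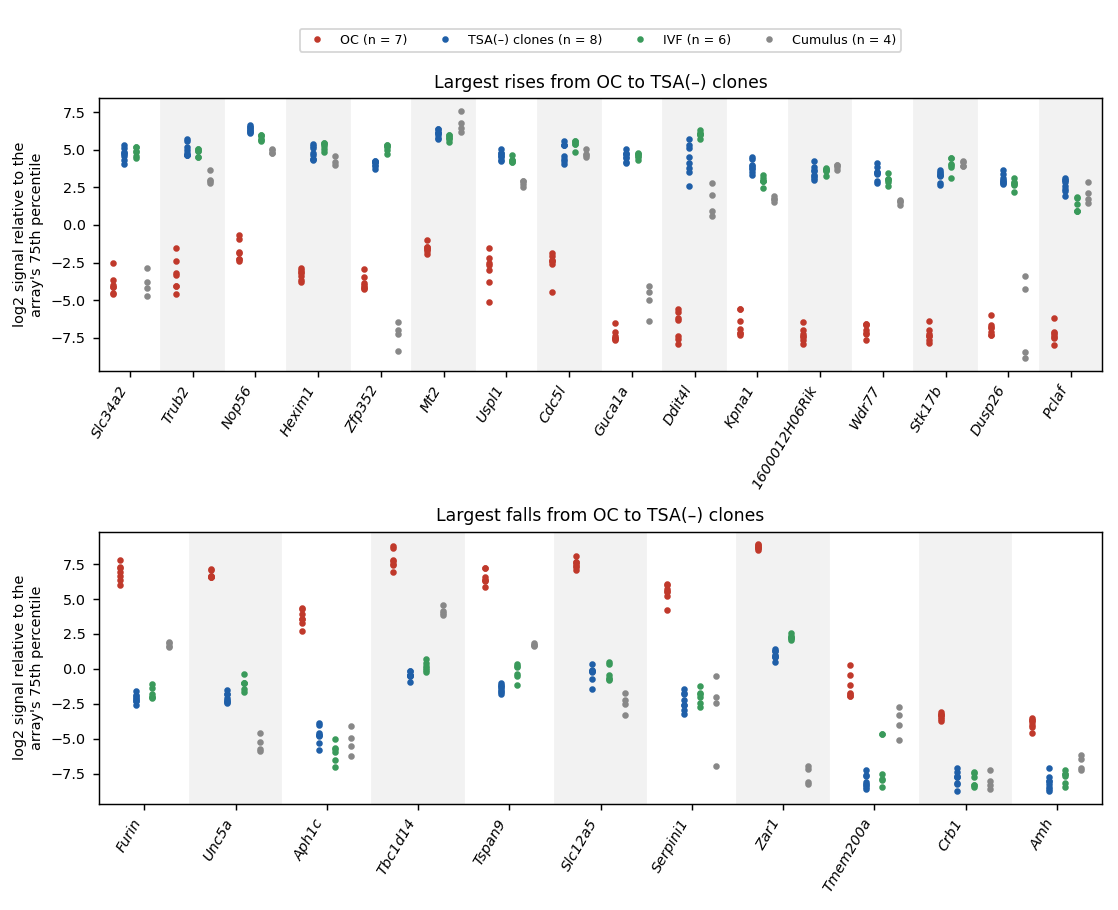
Level on every array (points) of the genes with the largest rises (upper panel) and falls (lower panel) from OC to TSA(–), with IVF and Cumulus beside them, in log2 relative to the 75th percentile of the array. The genes were chosen so that OC and TSA(–) points do not overlap. Of the 27 genes, 7 were called different between TSA(–) and IVF.

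Where transcripts start in OC and TSA(–) was not measured. Promoters of 3 leading risers and 3 leading fallers are printed at their annotated starts. They are RefSeq windows of GRCm38.p6 from 250 bases before to 50 bases after the annotated start, read 5′ to 3′ on the gene's strand, with matches to 10 short motifs on either strand in capitals: a TATA box as TATAAA, the CCAAT box, the GC box as GGGCGG, the ETS core as CCGGAAG, the NRF1 motif, GGATTA (OTX and OBOX homeodomains), TAATTA (NOBOX), the DUX motif, CACGTG (E-box) and GAANNTTC (heat shock element).
Zfp352, chr4:90218570-90218869, plus strand: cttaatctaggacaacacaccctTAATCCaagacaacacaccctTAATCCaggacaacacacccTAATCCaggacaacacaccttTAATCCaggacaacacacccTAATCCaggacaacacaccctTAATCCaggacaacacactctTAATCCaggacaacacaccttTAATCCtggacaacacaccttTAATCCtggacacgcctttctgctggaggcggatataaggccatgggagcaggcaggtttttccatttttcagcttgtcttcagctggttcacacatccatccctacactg
Guca1a, chr17:47400557-47400856, minus strand: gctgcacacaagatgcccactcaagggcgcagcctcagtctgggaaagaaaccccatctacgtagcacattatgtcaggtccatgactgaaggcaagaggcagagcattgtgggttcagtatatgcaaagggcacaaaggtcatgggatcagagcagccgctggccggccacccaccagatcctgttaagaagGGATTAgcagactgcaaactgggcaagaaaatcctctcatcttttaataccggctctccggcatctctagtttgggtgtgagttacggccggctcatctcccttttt
Nop56, chr2:130274162-130274461, plus strand: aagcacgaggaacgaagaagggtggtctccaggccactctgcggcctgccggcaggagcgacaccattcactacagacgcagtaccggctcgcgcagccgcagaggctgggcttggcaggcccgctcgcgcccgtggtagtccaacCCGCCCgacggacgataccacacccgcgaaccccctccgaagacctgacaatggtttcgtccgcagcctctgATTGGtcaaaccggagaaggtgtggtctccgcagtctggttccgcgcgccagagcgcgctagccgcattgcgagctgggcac
Furin, chr7:80405387-80405686, minus strand: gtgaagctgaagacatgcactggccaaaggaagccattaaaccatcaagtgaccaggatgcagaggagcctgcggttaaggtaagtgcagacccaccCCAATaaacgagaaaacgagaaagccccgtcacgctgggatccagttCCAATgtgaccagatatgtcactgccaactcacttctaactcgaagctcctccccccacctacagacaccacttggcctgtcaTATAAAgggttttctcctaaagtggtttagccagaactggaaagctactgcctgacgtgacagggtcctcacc
Zar1, chr5:72581035-72581334, minus strand: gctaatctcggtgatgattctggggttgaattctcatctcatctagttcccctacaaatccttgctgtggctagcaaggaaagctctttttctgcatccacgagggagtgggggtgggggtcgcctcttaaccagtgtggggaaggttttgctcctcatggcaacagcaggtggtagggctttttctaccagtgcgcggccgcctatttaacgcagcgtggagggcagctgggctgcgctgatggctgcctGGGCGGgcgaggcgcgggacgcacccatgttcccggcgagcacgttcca
H1f8, chr6:115944681-115944980, plus strand: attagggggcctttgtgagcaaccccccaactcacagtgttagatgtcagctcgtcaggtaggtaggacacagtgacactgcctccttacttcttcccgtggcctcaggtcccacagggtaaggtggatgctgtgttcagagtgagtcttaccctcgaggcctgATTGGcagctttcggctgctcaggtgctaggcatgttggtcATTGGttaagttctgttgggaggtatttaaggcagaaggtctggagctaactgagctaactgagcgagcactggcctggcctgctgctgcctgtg

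The window of Zfp352 held 9 copies of TAATCC, the reverse complement of GGATTA, from position −227 to −61, spaced by 20 or 21 bases in a tandem repeat. No other promoter of the 27025 in the table had 9, the next highest number was 4, and 7.16% had any. Guca1a had 1 copy at −57. The Nop56 window had 32 CpG dinucleotides, a CCAAT box and a GC box, whereas Zfp352 had 2 CpGs. Across genes, the 3497 risers with a promoter in the table and the 4705 fallers, each measured on all arrays of the higher group, had alike promoters: a GC box in 60.5% and 61.0%, an ETS core in 16.9% and 16.8%, a TATA box in 8.06% and 9.14% and a median of 18 and 20 CpGs. The 516 risers that were above background on no OC array had a median of 12 CpGs, with an ETS core in 7.56% and a GC box in 47.7%. Over all genes tested these values were 17, 13.8% and 53.5%. These are counts of letters, with no test, and a match is not a shown binding site.

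Among the genes well above background on all 15 arrays, Furin, a proprotein convertase, had the largest fall. It lay between 6.02 and 7.79 (median 6.91) in OC and between −2.60 and −1.55 (median −2.11) in TSA(–), a difference of −8.98 ± 0.23 (SE) or 506-fold (adjusted p = 1.54e-23). Unc5a, a netrin receptor, differed by −8.82, Aph1c, a subunit of gamma-secretase, by −8.41, Tbc1d14, a regulator of autophagy, by −8.26, the tetraspanin Tspan9 by −7.95, the potassium-chloride cotransporter Slc12a5 by −7.81 and neuroserpin, Serpini1, by −7.75 (largest adjusted p of the 8, 8.37e-13). Unc5a, Slc12a5 and Serpini1 are best known from nerve cells. Zar1, a maternal-effect gene whose product binds stored messages in the oocyte, had levels of 8.49 to 8.94 (median 8.69) in OC and 0.48 to 1.39 (median 0.97) in TSA(–), 210-fold apart. Only 3 genes with a symbol fell from every OC array to no TSA(–) array. They were Tmem200a (at least 54.4-fold lower), the polarity gene Crb1 (12.1-fold) and the anti-Müllerian hormone gene Amh (8.77-fold), the last pair also as lower bounds.

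Oocyte-specific genes fell by unequal amounts. The oocyte lists here and below were drawn up as such, with earlier results of these data known, which favours a fall. In the list of zona pellucida and oocyte-secreted genes 9 of 11 measured members fell and 1 rose, with a median difference of −2.62 against −0.91 over all genes tested. Under all 3 scalings 5 fell and 1 rose. Izumo1r (Juno), the egg receptor for sperm Izumo1, fell most, from 0.13 to 0.98 (median 0.72) in OC to between −5.30 and −4.16 (median −4.73), 42.9-fold. Astl, the cortical granule protease that hardens the zona, fell 32.1-fold and the receptor gene Kit 12.1-fold. The growth factors Gdf9 (−2.97) and Bmp15 (−1.91), the oocyte-secreted Oosp3 (−2.62) and Oosp1 (−2.38) and the zona genes Zp3 (−3.12) and Zp2 (−1.17) fell less, and stayed well above background on all TSA(–) arrays. After quantile normalization Bmp15 turned to 0.42, and Zp2, Oosp1 and Oosp3 lost their call. Fgf8 differed by −1.23 and was not called (adjusted p = 0.0638), although OC (from 2.50) and TSA(–) (up to 2.35) did not overlap. The fit also takes in the spread of Fgf8 in IVF (SD 1.87) and Cumulus (SD 1.33). Ovgp1, named as an oviduct glycoprotein, was the member that rose (2.77), although OC reached −1.34 and TSA(–) began at −1.93.

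Transcription factors of the growing oocyte followed the same course, with 8 of 10 lower and 1 higher (5 and 0 under all 3 scalings, median −2.53). Sohlh2 lay between 3.81 and 4.71 in OC and between −1.01 and −0.16 in TSA(–), a 26.9-fold fall. The homeobox genes Obox1 (−3.95), Obox5 (−2.64), Nobox (−2.47) and Lhx8 (−1.78) fell as well, as did Figla (−2.59) and Tbpl2 (−2.79), the oocyte form of the TATA-binding protein, which was above background on 6 of 8 TSA(–) arrays. Lhx8 turned to 0.42 and Obox5 lost its call after quantile normalization. Pou5f1 fell by 0.64 but turned to 1.06 after quantile normalization, Gata4 differed by −0.27 (adjusted p = 0.305), and Foxo3 was the riser (0.95, not called with median centring).

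Of 19 maternal-effect genes, whose loss in the mother stops the embryo, 16 fell and 2 rose (10 and 1 under all 3 scalings, median −2.47). After Zar1 the largest falls were in Kdm1b, the oocyte H3K4 demethylase (−4.01), and Bnc1, a zinc finger gene (−3.88). The risers were the ubiquitin-conjugating enzyme gene Ube2a (1.33) and the chromatin remodeler gene Smarca4 (0.71, not called with median centring). Zbed3 fell by 0.63, a call that was lost without any 1 of OC arrays 3, 4, 5 and 6 and TSA(–) arrays 3 and 7 (differences of −0.59 to −0.53). The oocyte Nlrp family, which includes a component of the subcortical maternal complex (Nlrp5), had the lowest median of the lists, −3.38, with 9 of 10 members lower and none higher (7 and 0 under all 3 scalings). Nlrp4b fell from between 8.72 and 9.58 in OC to between 4.04 and 4.37 in TSA(–), 32.5-fold, and was followed by Nlrp4a (−4.57), Nlrp2 (−3.68), Nlrp4c (−3.61), Nlrp4f (−3.57), Nlrp9a (−3.18) and Nlrp9c (−3.08). Nlrp14 (−2.47) and Nlrp5 (−1.54) lost their calls after quantile normalization, and Nlrp9b missed the threshold (−1.78, adjusted p = 0.0194). The family arose by duplication, so probes may read more than one member.

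Members of the oogenesin and Prame-like family were called in both directions. Its copies are alike in sequence, and probes may cross between them. Of 15 measured members 10 fell and 4 rose, 2 and 3 of them under all 3 scalings. Pramel32 (−3.76), Oog4 (−3.30), Pramel13 (−3.16), Pramel48 (−2.01), Oog3 (−1.92), Oog1 (−1.83), Pramel27 and Pramel25 (both −1.75), Pramel26 (−1.32) and Pramel12 (−1.04) fell. After quantile normalization Oog1 (0.24), Oog3 (0.11), Pramel48 (0.47), Pramel27 (0.71), Pramel26 (0.48) and Pramel12 (0.84) turned positive, and the median of −1.75 became 0.48. Pramel6 and Pramel7 went the other way by a much wider margin. Pramel6 was above background on no OC array and lay between 1.72 and 2.69 (median 2.33) in TSA(–), at least 185-fold higher. Pramel7, above background on 4 of 7 OC arrays, rose from between −5.65 and −3.25 to between 3.99 and 4.85 (8.89). Pramel37 (3.45) and Pramel39 (2.13) rose too but overlapped OC, and both were lower in TSA(–) than in IVF, with differences of −5.12 and −5.42 (adjusted p = 3.49e-09 and 4.56e-08). Pramel1 differed by 0.92 (adjusted p = 0.186).

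**Figure D3:**
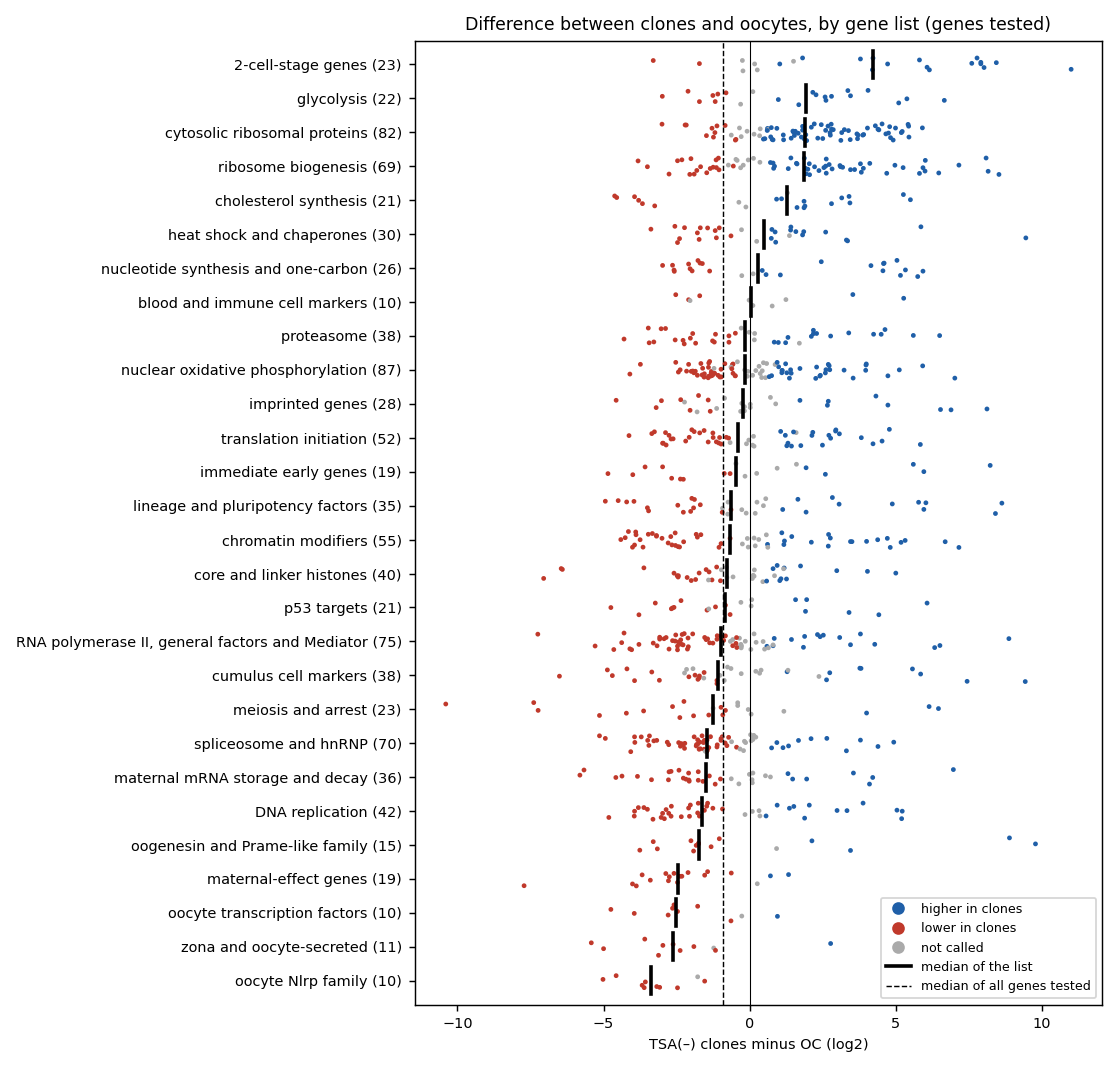
Difference between TSA(–) clones and OC (x axis, log2) for each gene tested (points) of the 28 gene lists, ordered by median; blue points were called higher, red points lower and grey points were not called, with the number of genes in parentheses. The oocyte lists lie at the bottom, left of the dashed median of all genes (−0.91), and the 2-cell-stage genes at the top with a median of 4.22. These lists hold genes known from the stage, which favours this order. The medians of 11 lists change sign after quantile normalization and those of 3 with median centring.

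Genes that run meiosis and hold the oocyte in metaphase included the largest fall of the lists. In the list of meiosis and arrest genes 14 of 23 fell and 3 rose, 8 and 3 under all 3 scalings, and the median was −1.25. Mos, the kinase of cytostatic factor, lay between 4.79 and 5.78 (median 5.68) in OC and between −7.53 and −3.64 (median −4.70) in TSA(–), a difference of −10.40 ± 0.50 (SE) or 1350-fold, and 1 TSA(–) array was not well above background. Bub1b, the spindle checkpoint kinase BubR1, fell 168-fold, from between 8.00 and 8.78 to between 0.79 and 1.26. Plat, tissue plasminogen activator, a message known to be stored silent in the oocyte and translated at maturation, fell 151-fold from between 9.34 and 10.30 to between 2.38 and 3.07. The risers of the list were Cdk1, the mitotic kinase itself (from between −4.79 and −2.34 to between 2.22 and 3.39), and the meiotic cohesin subunits Stag3 (6.46, above background on 6 of 7 OC arrays) and Rec8 (4.0). A second Cdk1 probe, above background on none of the 15 arrays, was lower by 1.59. Rec8 was also higher in TSA(–) than in IVF, 8.69-fold (adjusted p = 1.43e-10), where it lay between −2.91 and −1.41 against −0.49 to 1.42 in TSA(–).

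Regulators of stored messages moved in both directions. Among 36 such genes 21 fell (58.3%) and 7 rose (19.4%), beside 47.9% and 27.7% of all genes. Under all 3 scalings 13 fell and 7 rose, and the median of −1.49 turned to 0.27 after quantile normalization. Patl2, an RNP component of the oocyte, fell 56.3-fold from a narrow range of 3.68 to 3.88, the decapping factor Dcp1a fell 51.0-fold and the polyadenylation element binding protein Cpeb3 23.9-fold. Its relative Cpeb4 rose from between −3.72 and −0.95 to between 1.99 and 2.64, 17.1-fold. Pabpc1, the general poly(A)-binding protein, rose from between −1.69 and 3.09 to between 5.21 and 5.97. Dis3, the catalytic subunit of the exosome, rose from between −6.36 and 1.02 (above background on 4 of the 6 OC arrays whose spot was not rejected as an outlier) to between 4.18 and 4.88.

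A list of 19 pairs set a protein listed as an oocyte form against its general form. The oocyte form fell in 12 pairs, and in 5 of these the general form rose. Over all 19 pairs the general form fell in 11 and rose in 6, beside 47.9% lower and 27.7% higher of all genes tested. H1f8 was counted with H1f0 and again with H1f2. The linker histone pair was H1f8 (H1foo), the oocyte form, and H1f0, the form of differentiated cells: H1f8 fell from between 9.94 and 10.88 (median 10.48) to between 3.43 and 4.17 (median 4.06), 87.3-fold, and H1f0 rose from between −1.18 and −0.07 to between 0.37 and 1.03, 2.26-fold. The other pairs of this kind were Wee2 (−0.98) and Wee1 (2.94), Cnot6l (−2.18) and Cnot6 (1.47), Cpeb1 (−3.36) and Cpeb4 (4.10), and Aurkc (−5.14) and Aurkb (0.52). H1f0 was not called with median centring (0.50) and Aurkb turned to −0.16, while Wee2 and Cnot6l turned to 1.36 and 0.25 after quantile normalization, so that Cpeb1 and Cpeb4 were the pair whose opposite calls held under all 3 scalings. In 7 pairs both forms fell: H1f8 with H1f2 (−1.29), Lsm14b (−1.60) with Lsm14a (−1.76), Patl2 (−5.81) with Patl1 (−1.76), Btg4 (−2.09) with Btg1 (−3.05), Bcl2l10 (−1.92) with Bcl2l1 (−1.08), Uchl1 (−2.11) with Uchl3 (−2.93) and Tbpl2 with Tbp (−2.28). Of these, H1f8 with H1f2 and Tbpl2 with Tbp were lower in both forms under all 3 scalings. In the other 5 pairs Lsm14a (0.47), Patl1 (0.06), Btg4 (0.37), Bcl2l10 (0.14), Bcl2l1 (0.20) and Uchl1 (0.37) turned positive after quantile normalization. In cohesin the oocyte form rose, with Rec8 up by 4.0 and its mitotic counterpart Rad21 at −2.24, although a second Rad21 probe was higher by 0.80. The remaining pairs had 1 called member or none. Eif1a rose by 4.22 beside Eif1ax (−0.11), which the list takes as the oocyte form although its mean level was 5.11 in Cumulus and 3.89 in OC. Npm1 fell by 3.5 beside Npm2 (0.26), Ccnb1 fell by 3.63 beside Ccnb3 (1.17), Smc1a fell by 0.73 beside Smc1b (0.05), and neither was called of Ybx2 (0.71) and Ybx1 (0.09) or of Dnmt3l (−0.05) and Dnmt3a (−0.25, with other probes called in both directions).

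Genes known for their burst at the 2-cell stage formed the list with the highest median. They were listed for that burst, with earlier results of these data known, which favours a rise. Of 23 measured, 16 rose and 2 fell (15 and 1 under all 3 scalings), with a median of 4.22. Ddit4l led, followed by Spz1, which was above background on no OC array and lay between 0.54 and 1.69 in TSA(–), at least 78.4-fold higher, and by Zfp809 (8.02, above background on 1 of 7 OC arrays). Eif1a, a translation initiation factor among the first genes to be transcribed, rose from between −3.36 and 0.15 to between 2.58 and 3.42, 18.6-fold. Tcstv3 rose by 1.03, a call lost with median centring. The members that fell were Rfpl4 (−3.30) and Cphx1 (−1.72, and 0.49 after quantile normalization). Zscan4c, the best known marker of the stage, was not called, with −2.27 to 1.85 (median 0.73) in OC and −2.28 to 1.60 (median 0.58) in TSA(–), beside 4.21 ± 0.35 (SD, n = 6) in IVF. Tested against IVF, 11 of the 23 genes were lower in TSA(–) and none was higher, beside 13.4% and 10.8% of all genes tested, and the median difference from IVF was −1.01. Zscan4, Tcstv, Usp17l, Obox and Tdpoz genes are near-identical copies whose probes cannot be assigned to one member with certainty.

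Lineage and pluripotency factors moved in both directions. Of 35 measured, 11 rose (31.4%) and 15 fell (42.9%), shares near the 27.7% and 47.9% of all genes. Under all 3 scalings 9 rose and 11 fell. The median of −0.64 became 0.10 after quantile normalization. Mycn was above background on no OC array and lay between 1.33 and 2.04 (median 1.55) in TSA(–), at least 114-fold higher, while a second, dim Mycn probe was lower by 0.97. Dppa4, a chromatin protein of pluripotent cells, rose by 8.41 (above background on 3 of 7 OC arrays) and Zfp42 (Rex1) by 6.03 (6 of 7). Their differences from IVF were −0.04 for Mycn, −0.16 for Dppa4 and −0.47 for Zfp42, none of them called. The largest falls were in Sall4 (−4.94), Sox2 (−4.50) and Tfap2c (−4.21). Sox2 was between 0.35 and 2.76 (median 1.87) in OC and between −3.44 and −1.92 (median −2.70) in TSA(–), and the IVF mean of Sox2 was 2.25. Against IVF 11 of the 35 were lower in TSA(–) (31.4%, beside 13.4% of all genes) and none was higher (beside 10.8%). Eomes, picked after its values were seen, was at 0.74 ± 0.28 (SD, n = 6) in IVF but above background on 3 of 8 TSA(–) arrays, with a highest level of −3.93.

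**Figure D4:**
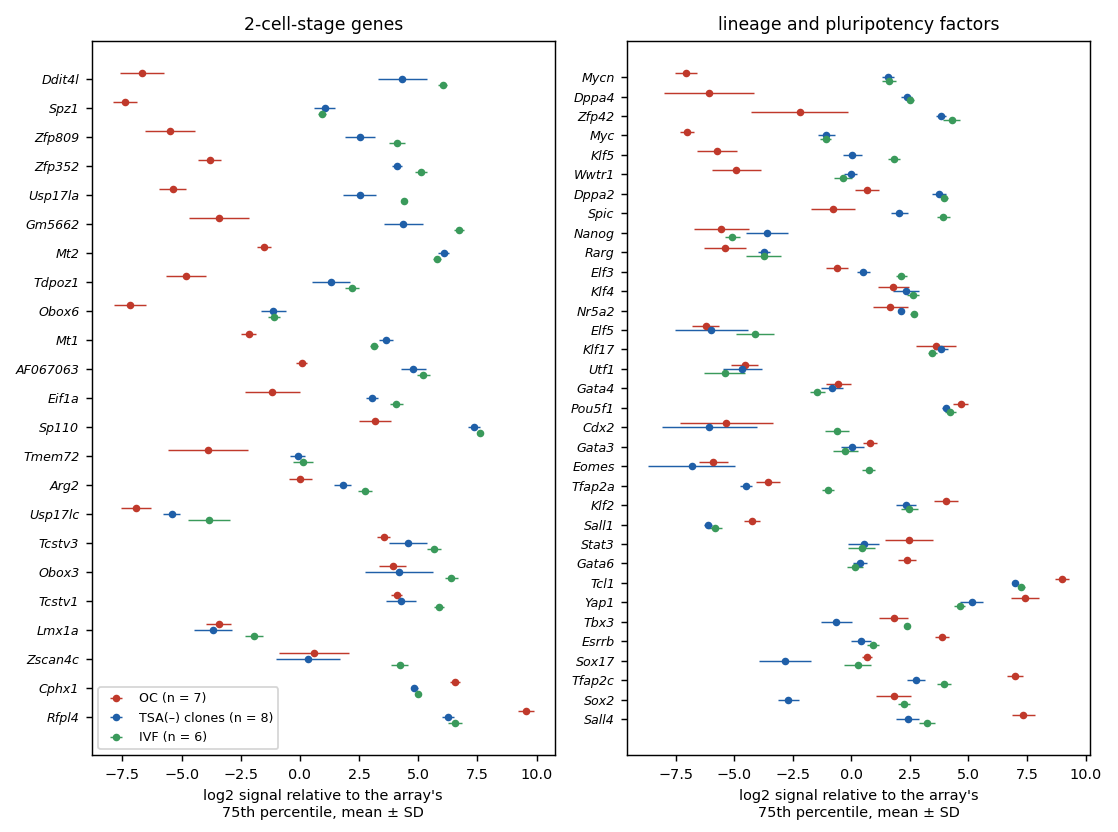
Mean level ± SD (x axis, log2 relative to the 75th percentile) in OC, TSA(–) and IVF of the 23 measured 2-cell-stage genes (left) and the lineage and pluripotency factors (right, 1 of the 35 left out), ordered by the difference between TSA(–) and OC. Mycn and Dppa4 were not called different between TSA(–) and IVF, whereas Sox2 and Eomes lay far to the left of their IVF value.

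In the histone list 17 of 40 measured genes fell (42.5%) and 11 rose (27.5%), shares near the 47.9% and 27.7% of all genes, and 12 and 4 did so under all 3 scalings. The largest falls were in the linker histone genes H1f3 (−7.05, above background on 6 of 7 OC arrays and no TSA(–) array) and H1f8 and in H2bc4, an H2B gene, which fell 85.2-fold. The largest rises were in H2ap (at least 14.6-fold), H2bc21 (4.03, above background on 1 of 7 OC arrays) and H2al1m (2.98, on 5 of 7). Core histone genes share most of their coding sequence, so these probes are uncertain as to the copy. Chromatin modifiers were divided much as all genes were, with 28 of 55 lower (50.9%) and 19 higher (34.5%). Under all 3 scalings 25 were lower and 14 higher. Uhrf1, which brings the maintenance DNA methyltransferase to DNA, fell 21.3-fold from between 8.33 and 8.61 to between 3.87 and 4.43, the H3K4 methyltransferase gene Kmt2b fell 19.2-fold and the histone chaperone gene Asf1a 17.7-fold. The largest rises were in Suv39h1, Kdm4c and Hdac10. Suv39h1, a methyltransferase of H3 lysine 9, rose from between −6.47 and −4.59 (above background on 2 of 7 OC arrays) to between 0.73 and 2.13, and Kdm4c, a demethylase of the same residue, from no OC array above background to between −0.91 and 0.75 (at least 38.2-fold). Hdac10 rose by 5.32 (above background on 1 of 7 OC arrays). None of Suv39h1, Kdm4c and Hdac10 differed from IVF at the threshold.

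Genes of ribosome production mostly rose. Of 82 genes of cytosolic ribosomal proteins 63 rose and 11 fell (52 and 4 under all 3 scalings), with a median of 1.90. The split was alike in the large subunit (38 of 50 up, 7 down) and the small subunit (25 of 32 up, 4 down). Rpl12 rose from between −1.31 and 0.37 to between 4.90 and 5.75, 60.3-fold. Next were Rpl7l1 (5.45, above background on 6 of 7 OC arrays) and Rpl3l (at least 12.8-fold), paralogues of Rpl7 and Rpl3. Rpl27a (−3.00), Rps15a (−2.21, with a second probe higher by 2.70) and the paralogue Rpl39l (−2.17) fell. Ribosome biogenesis genes moved with them, 43 of 69 up and 18 down (37 and 8 under all 3 scalings), with a median of 1.87. Beside Nop56, Nop2 (8.53, above background on 3 of 7 OC arrays), a methyltransferase of 28S rRNA, and Nop16 (8.16, on 2 of 7) rose most. Brix1 (−3.82), nucleophosmin, Npm1 (−3.5), and Utp18 (−2.76) fell. Against IVF, 9 ribosomal protein genes were higher (11%) and 4 lower (4.88%), and 7 biogenesis genes were called in each direction (10.1%), beside 10.8% higher and 13.4% lower of all genes tested. Translation initiation factors were divided, with 20 of 52 up (38.5%) and 25 down (48.1%), beside 27.7% and 47.9% of all genes. Under all 3 scalings 18 were up and 12 down, and the median was −0.39, or 0.93 after quantile normalization. Eif5a2 (5.84, above background on 6 of 7 OC arrays), Eif2b5 (4.78) and Eif3m (4.53) rose, and Eif2b1 (−4.13), Eif4a1 (−3.35) and Eif4e3 (−3.26) fell.

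Among genes of RNA polymerase II, its general factors and Mediator 44 of 75 fell (58.7%, beside 47.9% of all genes) and 16 rose. Under all 3 scalings 22 fell (29.3%, beside 34.9%) and 13 rose. The median of −0.99 turned to 0.26 after quantile normalization. Mediator had 17 of 27 members down and 4 up, TFIID 13 of 20 down and 5 up, and the polymerase itself 5 of 9 down and 3 up. Gtf2a1l, the germ-cell form of TFIIA, fell 152-fold from between 6.4 and 7.48 to between −1.58 and 0.32, the Mediator gene Med20 39-fold and TFIIB, Gtf2b, 25.2-fold. The 3 largest rises of the list were of Gtf2e1, Taf1d and Gtf2f1. Gtf2e1, the large subunit of TFIIE, was above background on 1 OC array and rose to between 1.91 and 2.56 on the 7 TSA(–) arrays on which its spot was not rejected as an outlier, a difference of 8.87. Gtf2f1 of TFIIF rose 80.3-fold from between −1.19 and 0.31 to between 5.58 and 6.29, and Taf1d, a subunit of the RNA polymerase I factor SL1, 91.3-fold. In the spliceosome and hnRNP list 46 of 70 fell (65.7%) and 11 rose (15.7%), beside 47.9% and 27.7% of all genes. Under all 3 scalings 20 fell (28.6%, beside 34.9%) and 7 rose (10.0%, beside 21.9%). The median of −1.46 became 0.13 after quantile normalization. Lsm5 (−5.14), Prpf6 (−4.94) and Sf3b4 (−4.07) fell most, and Snrpd2 (4.93), Prpf4 (4.39) and Snrpc (3.79) rose most.

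Single complexes and pathways often held both directions, which is the background too, since 27.7% of all genes rose and 47.9% fell. Partners set against each other were picked after their values were seen. In glycolysis 13 of 22 genes rose (59.1%) and 7 fell (31.8%), with 12 and 3 under all 3 scalings and a median of 1.92. The lactate dehydrogenase genes moved in opposite directions. Ldhb, the oocyte's main form, fell from between 9.45 and 9.87 to between 6.50 and 6.82. Ldha rose from between −5.70 and 1.01 (above background on 6 of 7 OC arrays) to between 4.24 and 5.00, and so stayed below Ldhb. Among glucose transporters, Slc2a1 fell (−1.72, not called after quantile normalization) and Slc2a3 rose (5.10, above background on 5 of 7 OC arrays). Hk2 fell by 2.11, also not called after quantile normalization, and the enolase gene Eno3 rose at least 15.5-fold. The DNA replication list had 26 of 42 members down (61.9%) and 12 up (28.6%), with 17 and 10 under all 3 scalings. Its median of −1.63 was 0.26 after quantile normalization. Here the 2 subunits of primase moved in opposite directions. Prim2 fell from between 5.43 and 6.42 to between 0.85 and 1.53, 28.3-fold, and Prim1 rose from between −2.10 and −0.16 to between 3.97 and 4.73, 37.3-fold. Rpa3 (−3.95) and the helicase gene Mcm4 (−3.94) fell, while Fen1 (5.20) and the polymerase gene Pole (5.04) rose, above background on 2 and 6 of 7 OC arrays.

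In oxidative phosphorylation 40 of 87 nuclear genes fell (46.0%) and 31 rose (35.6%), beside 47.9% and 27.7% of all genes. Under all 3 scalings 14 fell (16.1%, beside 34.9%) and 23 rose (26.4%, beside 21.9%). The sign of the list, −0.17 in the median and 0.75 after quantile normalization, depended on the scaling. The genes of the complex III core proteins also moved in opposite directions: Uqcrc2 fell 13.3-fold and Uqcrc1 rose 34.9-fold, without overlap of OC and TSA(–) in either gene. Ndufaf5 (7.02, above background on 4 of 7 OC arrays) and Ndufs8 (at least 29.5-fold) of complex I rose, and Sdha of complex II (−4.10) and Ndufab1 (−2.53, with a second probe higher by 4.59) fell. Compared with IVF, 21 of the 87 were higher in TSA(–) (24.1%) and 5 lower (5.75%), beside 10.8% and 13.4% of all genes tested. The proteasome list had 18 of 38 down (47.4%) and 15 up (39.5%), beside 47.9% and 27.7% of all genes. Under all 3 scalings 9 were down (23.7%, beside 34.9%) and 13 up (34.2%, beside 21.9%). Against IVF 17 were higher (44.7%) and 2 lower (5.26%). Psma2 (−4.30), Psma1 (−3.47) and Psmd1 (−3.44) fell, and Psmc1 (4.63) and the immunoproteasome subunits Psmb9 (5.60) and Psmb10 (6.50), above background on 3 and 2 of 7 OC arrays, rose. Cholesterol synthesis had 12 of 21 genes up (57.1%) and 6 down (28.6%), with 10 and 6 under all 3 scalings and a median of 1.29. Lss (5.50, above background on 3 of 7 OC arrays), Mvk (at least 11.9-fold) and Mvd (3.43) were up. Srebf2, the transcription factor of the pathway (−4.62), Msmo1 (−4.55) and Sc5d (−3.94) were down. Nucleotide synthesis and one-carbon genes split into 13 up and 11 down of 26 (9 and 5 under all 3 scalings), with Prps1 (5.93), Adsl (5.75) and Impdh2 (5.33) at one end and Ctps (−2.98), Rrm2b (−2.64) and Dhodh (−2.59) at the other.

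**Figure D5:**
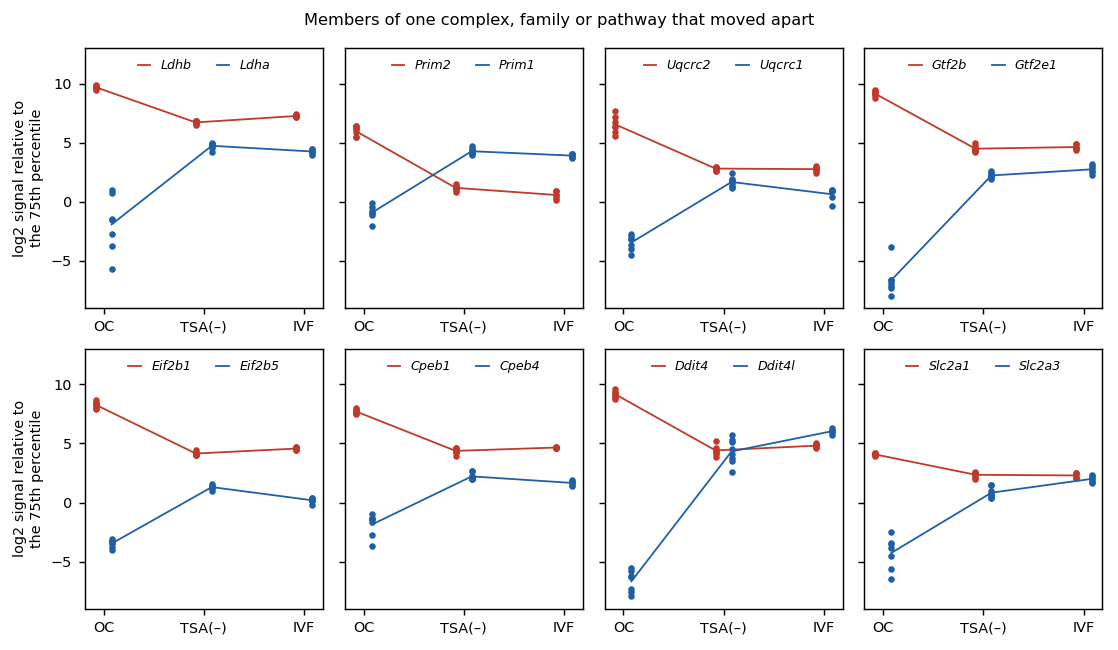
Level on every array (points, with lines through the group means) in OC, TSA(–) and IVF of 8 gene pairs of one complex, family or pathway, picked after their values were seen; the y axis is log2 relative to the 75th percentile of the array. The red gene of each pair was lower and the blue gene higher in all TSA(–) arrays than in all OC arrays.

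Stress genes did not share a direction. Of 21 targets of p53, 11 fell (52.4%) and 6 rose (28.6%), shares near the 47.9% and 27.7% of all genes. Under all 3 scalings 7 fell and 5 rose. Cdkn1a, the cyclin-dependent kinase inhibitor p21, rose from between −6.41 and −3.52 (above background on 4 of 7 OC arrays) to between 0.65 and 1.79, and Ccng1 (4.42) and Tigar (3.40) rose with it. Ddit4 fell 26.9-fold from between 8.79 and 9.58, the membrane protein gene Perp 13.8-fold and Mdm2, the ligase that degrades p53, 9.40-fold. Heat shock genes and chaperones were 14 up (46.7%) and 13 down (43.3%) of 30, with 10 and 2 under all 3 scalings. Bag3, the Hsp70 co-chaperone, rose by 9.45 to between 2.96 and 4.04, with 2 of 7 OC arrays above background and the highest of them at −2.73. Cct6a rose by 5.86 (above background on 2 of 7 OC arrays) and the inducible Hspa1a by 3.35. Hsp90ab1 fell 10.4-fold, and Hspa9 (−2.56) and Dnajb1 (−2.47, with a second probe higher by 3.78) fell but lost their calls after quantile normalization. Among 19 immediate early genes, 9 fell (47.4%) and 5 rose (26.3%), again near the shares of all genes (6 and 5 under all 3 scalings). Dusp1 (−4.85), Fosb (−4.0) and Zfp36 (−3.58) fell. Klf6 (at least 81.1-fold), Ier3 (21.4-fold) and Myc (18.3-fold, each a lower bound) rose from no OC array above background. Imprinted genes were 8 up and 8 down of 28 (28.6% each, and 7 and 7 under all 3 scalings). Mest, which is expressed from the paternal copy, fell 23.7-fold from the oocyte's high store, and Phlda2 (−3.20) and Grb10 (−3.02) fell too. Zrsr1 (8.12), Impact (6.89) and Sfmbt2 (6.53), all paternally expressed in other tissues, rose, each above background on 1 or 2 of 7 OC arrays. Impact was higher in TSA(–) than in IVF, by 2.24 (adjusted p = 6.25e-06), and Zrsr1 differed by −1.13 (adjusted p = 0.00186).

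The donor nucleus came from a cumulus cell, and markers of that cell were examined in the embryos. Of 40 markers 38 were tested, 33 were well above background on all Cumulus arrays, 18 on all TSA(–) arrays and 11 on all OC arrays. Against OC 9 rose (23.7%) and 15 fell (39.5%) in TSA(–), beside 27.7% and 47.9% of all genes. Under all 3 scalings 7 rose and 13 fell. Against IVF none was higher and 4 were lower (10.5%, beside 13.4% of all genes). The risers were led by Amhr2, the receptor of anti-Müllerian hormone (at least 224-fold), the keratin gene Krt18 (7.44, above background on 1 of 7 OC arrays) and connexin 43, Gja1 (5.85, on 3 of 7). Their TSA(–) means were within 0.72 log2 units of IVF and not called against it. The largest falls were in Cyp19a1 (aromatase, −6.51), Serpine2 (−4.87) and Rgs2 (−4.70), whose OC medians were above their Cumulus means (8.14 in the median of OC against a mean of 1.14 in Cumulus for Cyp19a1). The summed level of all 38 markers was 9.54 to 10.41 in OC, 5.45 to 5.86 in TSA(–) and 10.32 to 10.72 in Cumulus, and it follows the brightest members. Whether cumulus cells or their RNA took part in any value of OC was not tested. The Cumulus arrays were read on another scanner model with a later version of the scanner software, and their levels are set beside the others without a test. Blood and immune markers were low or mixed: of 10 tested 2 rose, 3 fell and 5 were not called. Lyz2 (5.27, above background on 1 of 7 OC arrays) and Lyz1 (at least 2.68-fold, and −0.35 with another background correction) rose. Itgam (above background on none of 7 OC and 1 of 8 TSA(–) arrays) and Pf4 (1 of 7 and none of 8) were called lower on signal at background, so no size is given. The call of Pf4 held without OC array 1, 6 or 7 and was lost without any other 1 of the 15. Ptprc (−2.04), Adgre1 (−0.02), Cd14 (0.11), Cd3e (0.77) and Hba-a1 (1.24) were not called.

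The genes that appeared in the clones, by the background flag, were set beside the donor cells. The OC arrays were dimmer, so some of these genes may have been present in OC below detection. Of the 651 genes with a symbol that rose from no OC array to all TSA(–) arrays, 403 (61.9%) were well above background on all Cumulus arrays and 98 (15.1%) on none, beside 71.7% and 15.3% of all genes tested. A closer comparison is with the 12220 genes well above background on all TSA(–) arrays, to which the 651 belong. Of these, 85.6% were so on all Cumulus arrays and 5.86% on none. The 98 genes above background on no OC and no Cumulus array were led by Pramel6 and Spz1, and among the next were Rps6kl1 (at least 49.5-fold over OC), Frem2, an extracellular matrix protein gene (48.5-fold), the mitochondrial carrier Slc25a41 (42.0-fold), the bHLH gene Tcf23 (39.9-fold) and the cystatin Cst7 (39.6-fold), all as lower bounds. A second, dim Rps6kl1 probe was lower than in OC by 0.92. Rps6kl1 (20.2-fold), Tcf23 (8.22-fold), Slc25a41 (7.1-fold) and Frem2 (2.01-fold) were called higher in TSA(–) than in IVF. Cst7 was called lower (1.73-fold), and Pramel6 and Spz1 were not called against IVF. Of those 98 genes 19 were lower in TSA(–) than in IVF (19.4%) and 27 higher (27.6%). Of the 403 genes present in the donor 39 were lower than in IVF (9.68%) and 129 higher (32.0%). These shares were not tested against each other. Over the whole set of genes, those that rose over OC were higher than IVF in 21.5% and lower in 9.83%, and those that fell were higher than IVF in 6.61% and lower in 15.3%. The same clone arrays enter both comparisons, so these shares are a description.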

How the data were processed

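RNA of pooled oocytes, embryos or cumulus cells was amplified in 2 rounds by the authors and hybridised to 1-colour Agilent 44K mouse arrays. The deposited scanner files, from Feature Extraction 9.5.3.1 (10.5.1.1 for Cumulus, per the file headers), hold the processed intensity of each spot after background subtraction. The deposited value table holds the authors' log2 values of the same arrays and served as an alternative. Control spots and 2671 outlier spots of the OC and TSA(–) arrays were left out, and no spot was saturated. The log2 processed intensity minus the 75th percentile of its array was averaged over spots of a probe. Probes with an intensity of at least 10 on 1 or more embryo arrays were kept (37927 of 41174), of which 22580 had a RefSeq symbol. For a gene with several probes the brightest over 31 arrays was used. Of 5264 such genes, 764 had probes called in opposite directions.

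1 limma model (version 3.58.1, R 4.3.3) held the means of all 5 groups (31 arrays, TSA(+) being clones given trichostatin A), and p-values were adjusted by Benjamini-Hochberg over all probes at 0.01. The fit was tested on simulated data. Summaries and exact permutation tests used Python 3.11.15, pandas 2.3.3 and scipy 1.17.1. The number of arrays limits the precision. Arrays of embryos given Spi-C mRNA were not used here, and values of 3 genes are not reported here. Alternatives covered scaling, background, filters, slide, scan day and replicate number as blocks, another test and leaving out each array. Named genes were the 8 largest rises and falls among non-overlapping genes measured on all 15 arrays, up to 8 each way that crossed the background, all members of lists of 15 or fewer, the 3 largest called rises and falls of longer lists, and all pairs. Members and lists were chosen with earlier results of these data known.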

Additional observations from a re-analysis of the deposited data

Results flagged for a closer look

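Cdc5l had 1 OC array at −4.48, far below the other 6, which lay up to −1.89. It was the only named gene and group with such a gap among the 58 examined, and chance flags about 1 in 20 groups.

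In 7 of the 27 genes with the largest changes, the change from OC differed between clones and IVF embryos, tested as the difference between TSA(–) and IVF in limma, beside 10.8% of all genes tested that were higher in TSA(–) than in IVF and 13.4% that were lower. Zfp352 was lower in clones by a difference of −1.05 and Ddit4l by −1.71, so both rose less than in IVF. Kpna1 (0.94) and Pclaf (1.34) rose more. The falls of Zar1 (−1.27), Tspan9 (−1.17) and Unc5a (−0.96) went further in clones than in IVF.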

How the results depend on the processing

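Of 9333 probes higher and 16699 lower in TSA(–), normexp background correction left 6165 higher and made 26668 lower. A 4-fold minimum left 7598 lower, and counting only probes well above background on every OC array, an alternative chosen after seeing the data, left 10931. Leaving out 1 array gave 9170 to 9300 higher and 15898 to 16712 lower. More members fell than rose in 20 of 28 lists, in 11 after quantile normalization and in 19 to 20 without 1 array. Pairs with the oocyte form lower and the general form higher numbered 5, also without any 1 array, and 1 with a 4-fold minimum. When 1 array of a group may fail, 3528 probes appeared, 44 disappeared and 7648 were seen in neither group. Samples of OC and TSA(–) share only a replicate number (correlations of deviations from −0.017 to 0.14), and the fit with the replicate block gave 8478 higher and 15481 lower.

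After quantile normalization these genes turned from lower to higher: Bcl2l1 (0.20), Bcl2l10 (0.14), Bmp15 (0.42), Btg4 (0.37), Cnot6l (0.25), Cphx1 (0.49), Lhx8 (0.42), Lsm14a (0.47), Oog1 (0.24), Oog3 (0.11), Patl1 (0.06), Pou5f1 (1.06), Pramel12 (0.84), Pramel26 (0.48), Pramel27 (0.71), Pramel48 (0.47), Smc1a (0.16), Uchl1 (0.37) and Wee2 (1.36). Aurkb turned to −0.16 with median centring and Lyz1 to −0.35 with normexp. Of 244 genes with a call, 207 kept it after quantile normalization, 238 with median centring and 238 with the replicate block. The cause of these shifts was not tested.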

Other observations

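Some genes were far higher in clones than in both OC and IVF, and were picked after their values were seen. Bfsp1, a lens filament protein gene, lay between 6.71 and 7.24 (median 6.96) in TSA(–), between −2.02 and 1.39 in OC and between −6.14 and −2.62 in IVF. It was 125-fold above OC and 1720-fold above IVF (adjusted p = 3.74e-17), and all IVF arrays were well above background. Ambp, a plasma protein gene, was above background on no OC array and at least 258-fold higher than in IVF. Pknox2, a homeobox gene, was 79.5-fold and Ripk3, a kinase of necroptosis, at least 51.4-fold above IVF. In the other direction the neurofilament gene Nefl was lower than in IVF, with a difference of −5.88, and rose over OC by 3.60, above background on 1 of 7 OC arrays. The median difference from IVF was −0.27 on chromosome X and between −0.21 and −0.04 on each autosome, values given without a test. Over the 12 genes tested of chromosome Y it was −5.81. The nucleus donors of the clones were females, which carry no chromosome Y.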
